A study of Mus musculus with 16 samples.

Results

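The TEAD transcription factors and the cofactors that bind them were followed across 16 RNA libraries of mouse 8-cell embryos. The group holds 7 genes, the 4 TEAD genes Tead1, Tead2, Tead3 and Tead4 and the cofactor genes Yap1, Wwtr1 and Vgll4, chosen by gene symbol from the 43437 genes of the deposited table, and all 7 were found. Each library held RNA from a pool of 10 embryos, about 80 cells, and the 4 groups held 4 libraries each. Zygotes of every group, control included, were injected with double-stranded RNA (dsRNA) to deplete the transcript it matches, and were grown in KSOM medium until the 8-cell stage. The control group received dsRNA against GFP, and the others received dsRNA against Tfap2c, against Tead4, or against both (the double knockdown). All embryos were of F1 crosses: cross A had C57BL/6J×CBA/J mothers, and the mothers of cross B were C57BL/6J×DBA/2J. Fathers are given as C57BL/6J×DBA, with a number after DBA that runs from 2 to 10 over the libraries. Within a cross each library has its own number. A difference in fathers, if the numbers mean one, cannot be told apart from the injection group. Libraries A1 and A2 of each group came from cross A, and B1 and B2 from cross B. A pool carries no information on single embryos or blastomeres, and since separate matings are not stated for a group's libraries, p values reflect only how pools differ.

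TEAD proteins bind DNA but activate transcription only with a coactivator, of which YAP (Yap1) and TAZ (Wwtr1) are the best known. Hippo signalling, through the LATS kinases, phosphorylates both coactivators and keeps them in the cytoplasm, and VGLL4 competes with them for TEAD. In the preimplantation embryo Tead4 with Yap1 and Wwtr1 is needed for trophectoderm genes in outer cells, and Tfap2c, an AP-2 transcription factor, acts in the same lineage.

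Values are FPKM (fragments counted for a gene, divided by its transcript length and the size of the library), which allows levels of different genes to be set side by side. A change is a difference on the log2(FPKM + 1) scale fitted with limma, and it understates the change of low genes, and a change was called at an adjusted p under 0.05 over the 11422 genes that reached 1 FPKM in 4 or more libraries. In all, 10049 to 10504 genes reached 1 FPKM per library. All 8 markers of the 8-cell embryo that were looked up were detected, with summed levels, most of which is Dppa3, from 8101 to 8953 FPKM in the control, 5731 to 7007 in the Tfap2c, 7738 to 8716 in the Tead4 and 6118 to 7249 in the double knockdown. Of the 8, which include Tfap2c itself, 6 fell and 1 rose in the Tfap2c knockdown, 0 were called in the Tead4 knockdown, and 4 fell and 1 rose in the double knockdown. Over all genes, 13.2% fell and 16.3% rose in the Tfap2c knockdown, and 11.3% and 13.9% in the double knockdown. In the Tead4 knockdown these shares were 2.78% and 3.35%. All 8 cumulus cell markers stayed under 1 FPKM and summed to at most 0.163 FPKM. The 4 sperm markers also each stayed under 1 FPKM, and summed to at most 1.52 FPKM. The summed blood markers, which were the alpha globin genes alone because Hbb-bs and Hbb-bt were listed at 0, ran from 9.86 to 26.8 FPKM in the control, 29.1 to 63.0 in the Tfap2c, 20.3 to 50.8 in the Tead4 and 40.7 to 77.7 in the double knockdown. Both alpha globin genes rose in the Tfap2c and the double knockdown, and 1 of the 2 rose in the Tead4 knockdown. Summed 2-cell markers reached 200.3 FPKM in 1 cross B library of the double knockdown against at most 28.7 FPKM in the other 3 groups. Against the control 1 of the 5 was called, higher in the double knockdown. Against the Tead4 knockdown 3 of the 5 were higher there, where 10.9% of all genes were. Of the trophectoderm markers, Cdx2, Eomes and Elf5 stayed under 1 FPKM in each library. Krt18 fell in the Tead4 knockdown (-1.82, adjusted p = 0.00620), Gata3 fell in the Tead4 and the double knockdown (-1.08 and -1.12, adjusted p = 0.0463 and 0.0133), and Krt8 was not called in any group. Of the inner cell mass and primitive endoderm markers, Sox2 and Sox17 stayed under 1 FPKM in each library, Fgf4 rose in the Tfap2c and the double knockdown (0.65 and 1.06, adjusted p = 0.0215 and 0.00114), and Gata4 was not called in any group. Of the 3 tested oocyte markers, Zp3 rose in the double knockdown (0.93, adjusted p = 0.0219), and no other was called in a knockdown group. In cross B against cross A, 4 of the 5 2-cell markers and all 3 tested trophectoderm markers were higher. In that comparison 2 of the 3 tested oocyte markers and both alpha globin genes were lower. Of all genes 17.2% were higher and 16.3% lower in cross B. The part of these differences in the results was not tested. In bulk samples, fewer cells of a type and less RNA per cell cannot be told apart. Tfap2c itself went from 35.7 ± 6.60 FPKM in the control to 15.8 ± 1.65 FPKM under its own dsRNA, 34.8 ± 1.67 FPKM under Tead4 dsRNA and 16.2 ± 0.342 FPKM under both (SD, n = 4).

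Control embryos held far more Tead4 mRNA than mRNA of any other gene of the group. Mean levels in the control were 48.6 ± 7.00 FPKM for Tead4, 21.2 ± 8.30 for Vgll4, 14.9 ± 2.76 for Wwtr1, 4.59 ± 0.444 for Yap1, 2.95 ± 1.05 for Tead1 and 1.06 ± 0.563 for Tead2 (SD, n = 4). Tead3 was at 0.178 FPKM in A1 and listed at 0 in the other control libraries. Neighbours in this order overlapped in 2 places, Vgll4 with Wwtr1 and Yap1 with Tead1, and the others did not overlap.

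**Figure D1:**
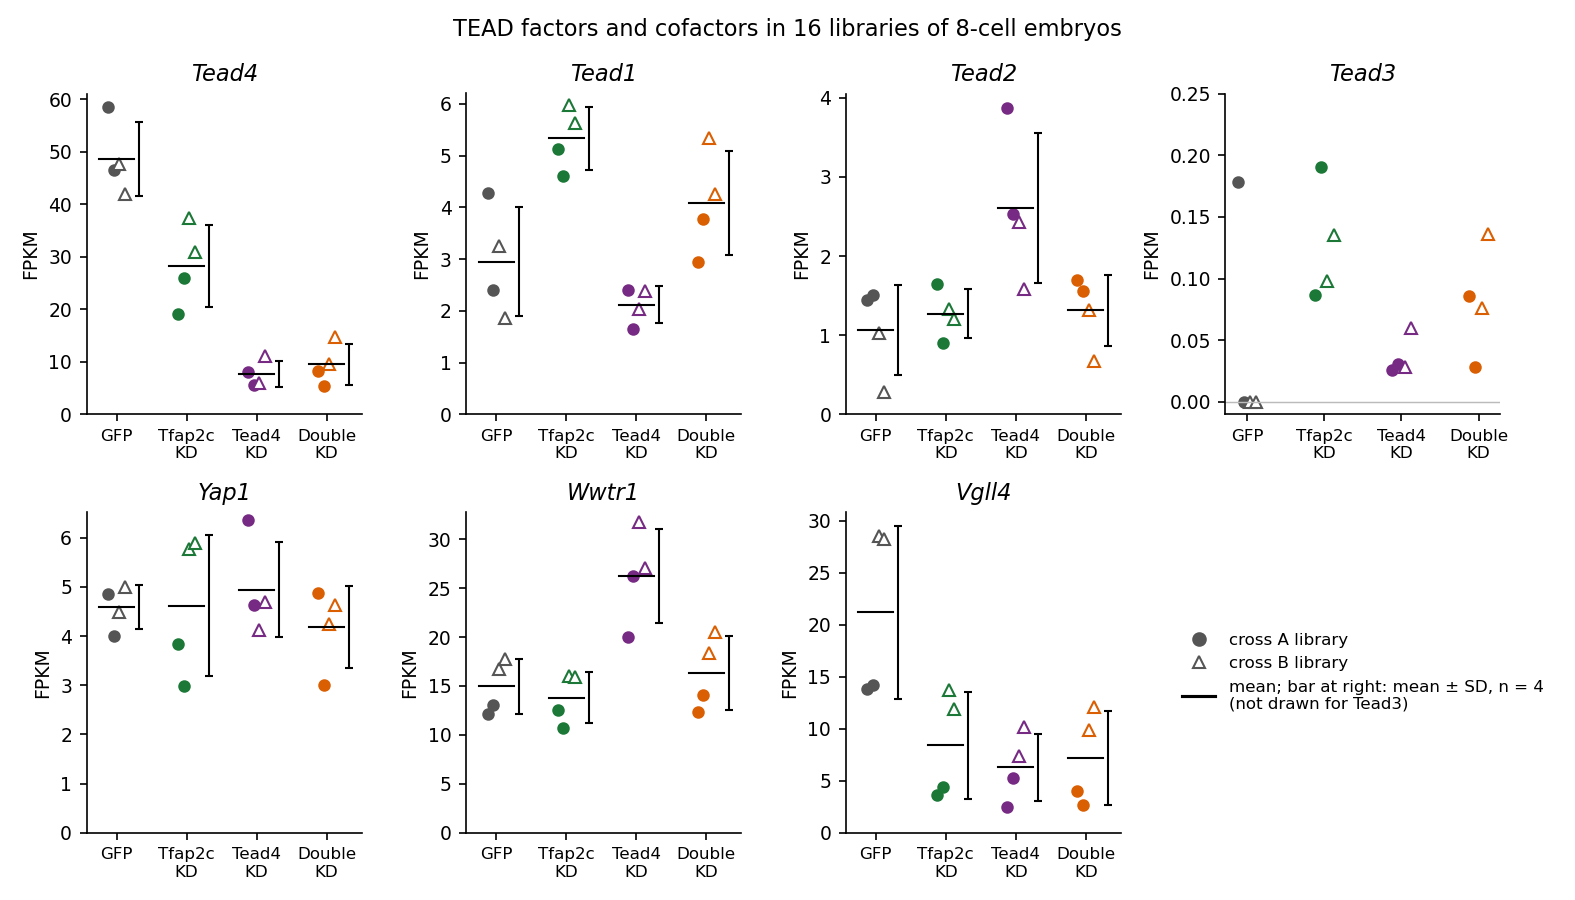
FPKM of the 7 genes in each library of the 4 injection groups; filled circles are cross A, open triangles cross B, short lines the group mean and the bars beside them mean ± SD (n = 4, not drawn for Tead3). Tead4 and Vgll4 lie below every control library in all 3 knockdown groups, and cross B lies above cross A for Vgll4 and Wwtr1 in each group.

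Tead4 (ENSMUSG00000030353, chromosome 6, 128227143 to 128300813 in GRCm38.p6, the assembly known as mm10) is the TEAD gene needed to form a trophectoderm. Its level was 58.4, 46.5, 47.7 and 41.8 FPKM in control A1, A2, B1 and B2. Under Tead4 dsRNA the same 4 libraries held 8.05, 5.57, 5.99 and 11.0 FPKM, a mean of 7.66 ± 2.49 FPKM or 15.7% of the control (log2 change -2.55, adjusted p = 2.22e-05). The double knockdown held 8.17, 5.40, 9.62 and 14.8 FPKM, a mean of 9.49 ± 3.94 FPKM or 19.5% of the control (-2.31, adjusted p = 1.15e-05). The 8 libraries with Tead4 dsRNA were thus all below the 8 without it, as their labels say. The groups with Tead4 dsRNA alone and with both overlapped (0.24, adjusted p = 0.498).

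Tead4 mRNA was also lower where only Tfap2c was targeted. The Tfap2c knockdown held 19.0, 25.9, 37.4 and 30.8 FPKM, a mean of 28.3 ± 7.77 FPKM or 58.2% of the control, and its highest library lay below the lowest control (-0.79, adjusted p = 0.0192). By exact permutation of 4 against 4 libraries, two-sided and without regard to cross, p was 0.0286 in each of the 3 knockdown groups. That is the smallest p this permutation can give, and any groups of this size that do not overlap reach it. The ratio to the control of the same cross was 0.428 for cross A and 0.761 for cross B, but the difference between crosses did not pass (interaction 0.81, adjusted p = 0.355). The Tfap2c knockdown call is near the threshold. It was lost without control A1 (adjusted p = 0.0692), control A2 (0.0507) or Tfap2c knockdown A1 (0.0594), and over all alternatives its adjusted p ran from 0.0132 to 0.385.

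Tead1 (ENSMUSG00000055320, chromosome 7, 112679356 to 112906784) encodes a broadly expressed TEAD factor. It stood at 4.28, 2.40, 3.26 and 1.86 FPKM in the control and at 5.12, 4.60, 5.98 and 5.64 FPKM in the Tfap2c knockdown. Its Tfap2c knockdown mean of 5.34 ± 0.606 FPKM was 181% of the control, the groups did not overlap, and the change passed (0.71, adjusted p = 0.00981). Under Tead4 dsRNA Tead1 was at 2.40, 1.64, 2.04 and 2.38 FPKM, all within or below the control range, and the change was not called (-0.31, adjusted p = 0.380). In the double knockdown it was at 2.95, 3.78, 5.35 and 4.27 FPKM, with a change of 0.38 that was not called (adjusted p = 0.153) but was without control A1 (0.57, adjusted p = 0.0267, with a range of 0.0267 to 0.948 over all alternatives). Its rise in the Tfap2c knockdown was 0.47 in cross A alone, where it was not called (adjusted p = 0.262, with a range of 0.00161 to 0.262 over all alternatives).

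Tead2 (ENSMUSG00000030796, chromosome 7, 45215792 to 45233468) is a TEAD gene of the early embryo, and here it rose in the Tead4 knockdown. Control levels were 1.44, 1.51, 1.03 and 0.283 FPKM, and levels under Tead4 dsRNA were 3.87, 2.54, 2.44 and 1.59 FPKM. The Tead4 knockdown mean of 2.61 ± 0.945 FPKM was 245% of the control, and its lowest library was just above the highest control (0.82, adjusted p = 0.0225). The Tfap2c knockdown, at 1.64, 0.905, 1.34 and 1.20 FPKM, and the double knockdown, at 1.70, 1.55, 1.32 and 0.679 FPKM, both overlapped the control (0.18, adjusted p = 0.544, and 0.19, adjusted p = 0.529). The Tead2 rise was not called without Tead4 knockdown A1 (adjusted p = 0.0676), Tead4 knockdown B1 (0.0691) or control B2 (0.0803), and over all alternatives its adjusted p ran from 0.0118 to 0.214.

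Tead3 (ENSMUSG00000002249, chromosome 17, 28331671 to 28350805), a TEAD gene best known from placenta, did not reach 1 FPKM in any of the 16 libraries and was left out of the fit by the expression filter. Its highest value was 0.191 FPKM, in the Tfap2c knockdown. The 4 Tfap2c knockdown libraries ran from 0.0870 to 0.191 FPKM, the Tead4 knockdown from 0.0257 to 0.0600 FPKM and the double knockdown from 0.0280 to 0.136 FPKM. Fitted without the filter, Tead3 was not called against the control (0.11, -0.01 and 0.05 in the Tfap2c, Tead4 and double knockdown, adjusted p = 0.200, 1.0 and 0.623), and at these levels no change can be read.

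Tead4 supplied most TEAD mRNA in every group, but less of it once Tead4 was depleted. Summed over the 4 genes, TEAD mRNA was 52.7 ± 8.49 FPKM in the control, 35.0 ± 8.14 in the Tfap2c knockdown, 12.4 ± 2.67 in the Tead4 knockdown and 15.0 ± 4.00 in the double knockdown (SD, n = 4). The Tead4 share of that sum was 92.5 ± 1.85% in the control, 80.1 ± 4.49% in the Tfap2c knockdown, 60.8 ± 8.25% in the Tead4 knockdown and 61.7 ± 10.1% in the double knockdown. Tead1 and Tead2 together held 4.02 ± 1.47 FPKM in the control, 6.61 ± 0.777 in the Tfap2c knockdown, 4.72 ± 1.05 in the Tead4 knockdown and 5.40 ± 0.891 in the double knockdown. The rise of Tead2 in the Tead4 knockdown thus amounted to a small part of the Tead4 mRNA that was lost. The remainder differed between the 2 groups with Tead4 dsRNA: Tead2 made up 21.7 ± 7.58% and Tead1 17.2 ± 1.57% of TEAD mRNA in the Tead4 knockdown, against 9.76 ± 5.05% and 28.0 ± 6.88% in the double knockdown. These sums and shares are descriptions with no test.

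**Figure D2:**
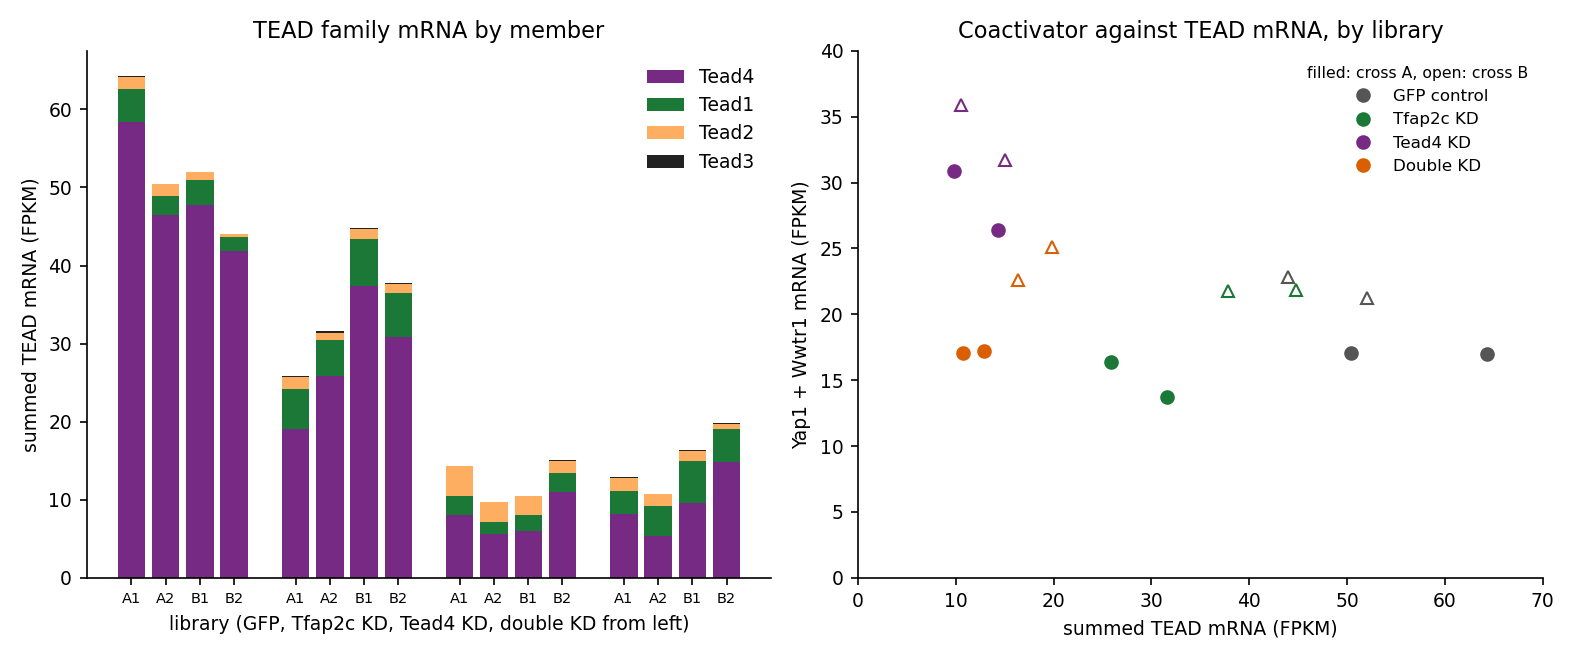
Left, stacked FPKM of the 4 TEAD genes in each library; right, summed Yap1 and Wwtr1 FPKM (y axis) against summed TEAD FPKM (x axis) for the same 16 libraries, filled for cross A and open for cross B. Tead4 makes up 92.5% of TEAD mRNA in the control and 60.8% in the Tead4 knockdown, whose libraries have the highest coactivator sums.

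Wwtr1 (ENSMUSG00000027803, chromosome 3, 57455644 to 57575910), which encodes the coactivator TAZ, rose where Tead4 alone was targeted. It stood at 12.2, 13.0, 16.8 and 17.8 FPKM in the control and at 20.0, 26.3, 31.7 and 27.0 FPKM in the Tead4 knockdown. The Tead4 knockdown mean of 26.3 ± 4.81 FPKM was 176% of the control, every library of it exceeded every control library, and the change passed (0.77, adjusted p = 0.000416). The ratio to the control of the same cross was 1.84 for cross A and 1.70 for cross B. With 2 libraries a group in each cross, neither cross alone passed (adjusted p = 0.0543 and 0.0661, the latter the highest over all alternatives and 0.000274 the lowest). The Tfap2c knockdown held 12.5, 10.7, 16.1 and 15.9 FPKM (-0.11, 95% interval -0.33 to 0.11, adjusted p = 0.465), and the double knockdown 12.4, 14.1, 18.4 and 20.5 FPKM (0.11, interval -0.11 to 0.33, adjusted p = 0.471). Both overlapped the control. In RefSeq the pseudogene Gm16016 overlaps the span of Wwtr1, and it was at most at 0.760 FPKM.

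Yap1 (ENSMUSG00000053110, chromosome 9, 7931999 to 8004638), the other coactivator gene, was called in no comparison. It stood at 4.85, 4.00, 4.50 and 5.00 FPKM in the control, and at 6.35, 4.63, 4.12 and 4.68 FPKM in the Tead4 knockdown (0.08, 95% interval -0.30 to 0.46, adjusted p = 0.867). In the double knockdown it was at 4.87, 3.00, 4.24 and 4.62 FPKM (-0.12, interval -0.50 to 0.26, adjusted p = 0.675). In the Tfap2c knockdown Yap1 was at 3.84 and 2.98 FPKM in cross A and at 5.77 and 5.88 FPKM in cross B (-0.03, interval -0.41 to 0.36, adjusted p = 0.934). Both cross A libraries lay below their own controls and both cross B libraries above theirs, but the difference between crosses did not pass (interaction 0.55, adjusted p = 0.370).

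Yap1 and Wwtr1 mRNA together came to 19.5 ± 2.96 FPKM in the control, 18.4 ± 4.06 in the Tfap2c knockdown, 31.2 ± 3.88 in the Tead4 knockdown and 20.5 ± 4.00 in the double knockdown. Summed TEAD mRNA was 2.78 ± 0.788 times the coactivator sum in the control and 0.407 ± 0.122 times in the Tead4 knockdown. In the double knockdown, where Tead4 mRNA was at 9.49 FPKM against 7.66 FPKM in the Tead4 knockdown, it was 0.724 ± 0.0679 times. The plot of coactivator against TEAD mRNA shows the 4 Tead4 knockdown libraries above all others.

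Vgll4 (ENSMUSG00000030315, chromosome 6, 114860621 to 114970007), whose protein competes with YAP and TAZ for TEAD, fell in all 3 knockdown groups. Control A1, A2, B1 and B2 held 13.9, 14.2, 28.5 and 28.3 FPKM. The same libraries held 3.64, 4.41, 13.7 and 11.9 FPKM in the Tfap2c knockdown, a mean of 8.41 ± 5.13 FPKM or 39.7% of the control (-1.34, adjusted p = 0.000103). Under Tead4 dsRNA they held 2.52, 5.25, 7.37 and 10.1 FPKM, a mean of 6.31 ± 3.23 FPKM or 29.8% of the control (-1.64, adjusted p = 0.000111). In the double knockdown they held 4.07, 2.66, 9.87 and 12.1 FPKM, a mean of 7.17 ± 4.53 FPKM or 33.8% of the control (-1.55, adjusted p = 3.74e-05). No knockdown library reached the lowest control, and within each cross the groups were apart as well. The 3 knockdown groups overlapped each other, and none of the 3 comparisons among them was called for Vgll4 (adjusted p = 0.783, 0.768 and 0.242). Without a term for cross, the calls in the Tfap2c and Tead4 knockdowns were lost (adjusted p = 0.0656 and 0.1003, each the highest over the alternatives, with lowest values of 3.17e-05 and 5.62e-05). The lncRNA gene Gm38876 overlaps the span of Vgll4 and was not found by name among the deposited genes, so its level is unknown.

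Read together, 3 of the 6 tested genes were called in the Tfap2c knockdown, where 29.6% of all genes were called. In the Tead4 knockdown 4 of 6 were called, where 6.13% of all genes were, and in the double knockdown 2 of 6, where 25.1% of all genes were. Tead4 itself is among each of these counts, and it was a target in the last 2 groups. The median change of the 6 genes was -0.07, -0.12 and -0.00 in these comparisons, against 0.06, 0.05 and 0.05 over all genes tested. The 3 comparisons share their control libraries. Limma fits a single spread per gene over all libraries. With groups of equal size, the standard error of a change against the control is therefore the same in the 3 groups. It was 0.23 for Tead4, 0.19 for Tead1, 0.20 for Tead2, 0.18 for Yap1, 0.10 for Wwtr1 and 0.19 for Vgll4.

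**Figure D3:**
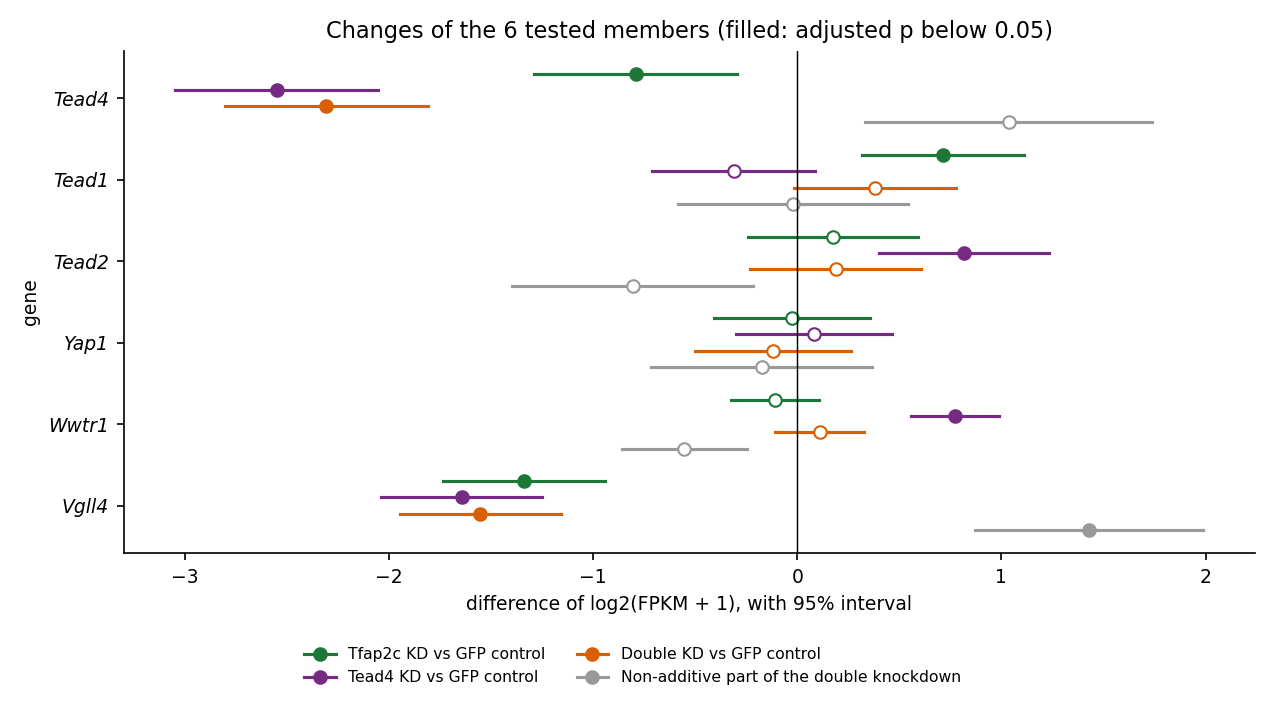
Differences of log2(FPKM + 1) for the 6 tested genes (rows), each with its 95% interval, for the 3 knockdown groups against the control and for the non-additive part of the double knockdown; filled symbols have an adjusted p under 0.05. Vgll4 and Tead4 fell in each knockdown group, Tead1 rose in the Tfap2c knockdown, and Wwtr1 and Tead2 rose in the Tead4 knockdown.

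Adding Tfap2c dsRNA to Tead4 dsRNA moved Wwtr1, Tead2 and Tead1. Against the Tead4 knockdown, the double knockdown had less Wwtr1 (-0.66, adjusted p = 0.000286) and less Tead2 (-0.63, adjusted p = 0.0297), and more Tead1 (0.69, adjusted p = 0.0137). These are 3 of 6 genes, where 23.7% of all genes were called. The Tead1 values of both groups did not overlap. The Wwtr1 and Tead2 values overlapped over the 4 libraries but were apart within each cross, with ratios of 0.571 and 0.661 for Wwtr1 and 0.507 and 0.496 for Tead2 in crosses A and B. The Wwtr1 call held in each alternative, with adjusted p from 0.00019 to 0.0349. The Tead2 call was lost in 10 of 26 alternatives (adjusted p from 0.0154 to 0.2198), among them those without Double KD A1, A2 or B2 or without Tead4 KD A1 or B1. The Tead1 call was lost only with cross A or cross B alone (adjusted p from 0.00501 to 0.221).

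Adding Tead4 dsRNA to Tfap2c dsRNA moved Tead4 alone among the 6 genes (-1.52, adjusted p = 0.0257), where 0.14% of all genes were called. The adjusted p of Tead4 was between 0.0508 and 0.0796 without Double KD A1, A2 or B1 or without Tfap2c KD A2, B1 or B2, and between 0.0160 and 0.171 over all alternatives, although the groups did not overlap. Wwtr1 was 0.22 higher in the double knockdown (95% interval 0.00 to 0.44, adjusted p = 0.522).

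The 2 single knockdowns differed from each other in 4 of the 6 genes, where 29.0% of all genes were called. The Tead4 knockdown had more Wwtr1 (0.88, adjusted p = 1.57e-05) and Tead2 (0.64, adjusted p = 0.0225) and less Tead4 (-1.76, adjusted p = 5.38e-05) and Tead1 (-1.03, adjusted p = 0.000751) than the Tfap2c knockdown. Of these, the Wwtr1, Tead4 and Tead1 calls held in each alternative. The Tead2 call was lost in 7 of 26 (adjusted p from 0.0111 to 0.362), among them those without Tfap2c KD A2 and without Tead4 KD A1 or B1.

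The non-additive part is the change in the double knockdown minus the sum of both single changes. It was called for 1 of the 6 genes, Vgll4 (1.43, SE 0.262, adjusted p = 0.0279), where 0.753% of all genes were called. The Vgll4 level of the double knockdown was thus higher than the product of both single changes would give. The Vgll4 call was lost in 14 of 26 alternatives, 9 of which leave out 1 library (controls A1, A2 and B2, Tfap2c KD A2, B1 and B2, Tead4 KD A1 and B1, Double KD A1), and its adjusted p ran from 0.0119 to 0.663. For Wwtr1 it was -0.55 (adjusted p = 0.1005), for Tead2 -0.81 (adjusted p = 0.234) and for Tead4 1.04 (adjusted p = 0.184).

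Between crosses, Vgll4 and Wwtr1 differed in every group. Both cross B libraries lay above both cross A libraries in each of the 4 groups, for Vgll4 by ratios of 2.03 in the control, 3.18 in the Tfap2c knockdown, 2.25 in the Tead4 knockdown and 3.26 in the double knockdown. The Wwtr1 ratios were 1.37, 1.38, 1.27 and 1.47. Both passed over all 16 libraries (Vgll4 1.23, adjusted p = 1.34e-05, and Wwtr1 0.43, adjusted p = 0.000456), also in each alternative. Tead2 was lower in cross B (-0.37, adjusted p = 0.0498), a call lost in 14 of 21 alternatives, 11 of which leave out 1 library (adjusted p from 0.0186 to 0.108). These are 3 of 6 genes, where 33.5% of all genes were called. How many of all genes had both cross B libraries above both cross A libraries in each group was not counted. Tead4, Yap1 and Tead1 were not called (0.34, 0.16 and 0.11, adjusted p = 0.122, 0.363 and 0.545). The crosses differ in mother strain, and whatever else differed between them cannot be told apart from it. None of the 6 genes had a change that differed between crosses by limma's interaction test, in which 0.0% of all genes were called for the Tfap2c, 0.0% for the Tead4 and 0.0% for the double knockdown. Over all genes, 1888, 797 and 1284 had an unadjusted p under 0.05 there. Of the tested members only Tead4 was among them, in the double knockdown (0.98, adjusted p = 0.405).

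Promoter sequence from RefSeq (GRCm38.p6) was matched for 5 of the 7 genes, Tead2, Tead3, Yap1, Wwtr1 and Vgll4. It is shown for 2 genes that rose in the Tead4 knockdown, for the coactivator gene that did not, and for Vgll4, which fell in all groups, because the depleted proteins bind DNA. Capitals mark matches to GGAATG, the core TEAD motif, and GCCNNNGGC, an AP-2 motif, searched on both strands in the 250 bases before each start. Sequences run 5′ to 3′ on the gene's strand. For Yap1 only the bases outside the annotated gene are shown, and for Vgll4 30 bases around its match, since its listed start lies inside the gene.
Wwtr1 (chr3:57575911-57576160, minus strand): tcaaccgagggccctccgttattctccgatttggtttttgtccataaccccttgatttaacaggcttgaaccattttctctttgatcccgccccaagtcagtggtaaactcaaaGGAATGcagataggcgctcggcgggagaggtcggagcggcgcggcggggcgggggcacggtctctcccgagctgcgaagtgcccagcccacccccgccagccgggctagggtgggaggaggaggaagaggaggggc
Tead2 (chr7:45215542-45215791, plus strand): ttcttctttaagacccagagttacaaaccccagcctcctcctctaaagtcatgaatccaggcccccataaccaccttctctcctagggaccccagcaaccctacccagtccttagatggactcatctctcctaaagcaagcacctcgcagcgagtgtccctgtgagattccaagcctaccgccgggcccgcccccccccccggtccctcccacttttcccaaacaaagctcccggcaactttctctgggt
Yap1 (chr9:8004639-8004846, minus strand): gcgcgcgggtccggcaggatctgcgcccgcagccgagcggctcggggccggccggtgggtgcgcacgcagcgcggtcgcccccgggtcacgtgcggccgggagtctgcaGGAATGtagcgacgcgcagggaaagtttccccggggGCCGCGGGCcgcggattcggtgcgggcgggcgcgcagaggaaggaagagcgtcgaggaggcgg
Vgll4 (chr6:114969268-114969297, minus strand): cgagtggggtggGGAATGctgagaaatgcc
Counted from the start, the Wwtr1 window shown had the TEAD core motif at -136. The same match lies at -170 from the other listed Wwtr1 start. The Vgll4 window had the TEAD core motif at -82. Yap1, whose mRNA was called in no comparison, had it at -141 and the AP-2 motif at -105. Tead2, which rose in the Tead4 knockdown, had neither motif in its window. Tead3, which did not reach 1 FPKM in any library, had windows for several starts, and its sequence is not shown. The window of 1 Tead3 start had the TEAD motif at -182 and the AP-2 motif at -50. The window of another start held 2 TEAD matches and no AP-2 match, and a further window held neither motif. The genes shown were chosen by their response, and a link between motif and response was not tested. Of 32851 promoter windows of this length, 12.6% held the TEAD motif and 13.7% the AP-2 motif on either strand. A match is a description of the letters and not a bound site.

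The pattern of each tested gene over the 16 libraries was set beside all other genes with a mean of at least 5 FPKM by Pearson's r of log2(FPKM + 1). The libraries share their groups, crosses and depth, so r is a description. Wwtr1 was most like 0610007P14Rik (r = 0.945), Hmgb3 (0.919), which encodes a chromatin protein, and Psrc1 (0.905), which encodes a spindle protein. Vgll4 was most like Rnpep (0.931), Zmym1 (0.927) and 4930522L14Rik (0.925). Tead1 was most like Tex264 (0.886), Gsta2 (0.878) and Blcap (0.873), and Tead2 most like Plek2 (0.905), Oaz2 (0.848) and Tubg1 (0.828). Yap1 had the lowest values, with Kri1 (0.824), Gm14288 (0.728) and Prpf39 (0.727). Tead4 was most like Slc46a1 (0.935), Dab2 (0.920) and Fastkd1 (0.919), and over the 8 libraries without Tead4 dsRNA most like 2810474O19Rik (0.977), Skp2 (0.970) and Spic (0.967).

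The wider pathway was read from gene lists. Over all 11422 genes tested, 16.3% rose and 13.2% fell in the Tfap2c knockdown (median 0.06), 3.35% rose and 2.78% fell in the Tead4 knockdown (median 0.05), and 13.9% rose and 11.3% fell in the double knockdown (median 0.05). Of 24 YAP-TEAD target genes 13 were tested. In the Tead4 knockdown 7 of the 13 fell and 0 rose (median -0.73), in the Tfap2c knockdown 4 rose and 3 fell (median 0.10), and in the double knockdown 2 rose and 8 fell (median -0.56). The Tead4 knockdown examples by lowest p were Amotl2, whose product binds YAP (-2.88, adjusted p = 5.48e-08), the endocytic adaptor gene Dab2 (-3.86, adjusted p = 4.36e-06) and the kinase gene Lats2 (-1.65, adjusted p = 0.000115). In the double knockdown they were Amotl2 (-1.42, adjusted p = 1.24e-05), Anln, which encodes the cytokinesis protein anillin (-1.23, adjusted p = 1.86e-05), and Ajuba, which encodes a LIM protein that inhibits LATS (1.05, adjusted p = 3.37e-05). Ajuba also rose in the Tfap2c knockdown (1.40, adjusted p = 2.35e-06) and was not called in the Tead4 knockdown (-0.09, adjusted p = 0.747).

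Ctgf, a matricellular gene widely used as a YAP-TEAD reporter, and Amotl2 went opposite ways under the 2 single knockdowns. Ctgf was at 3.71 ± 1.70 FPKM in the control, 10.8 ± 1.26 in the Tfap2c knockdown and 0.149 ± 0.211 in the Tead4 knockdown (1.40, adjusted p = 0.0012, and -1.96, adjusted p = 0.000523). In the double knockdown Ctgf was again above the control, at 7.41 ± 2.14 FPKM (0.89, adjusted p = 0.0239), with Tead4 mRNA at 19.5% of the control there. Most target genes went the other way there, as 2 of the 13 rose and 8 fell. Cyr61, also in the list, fell in the Tead4 and the double knockdown (-1.91 and -1.30, adjusted p = 0.00139 and 0.00472). In the Tfap2c knockdown Cyr61 was not called (-0.60, adjusted p = 0.141). Amotl2 was at 8.27 ± 2.09 FPKM in the control, 14.5 ± 5.58 in the Tfap2c knockdown, 0.254 ± 0.237 in the Tead4 knockdown and 2.47 ± 0.887 in the double knockdown. The only target gene with a called non-additive part was Dab2 (2.40, adjusted p = 0.0262), which like Vgll4 was higher in the double knockdown than the sum of both single changes gives.

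Of 28 genes upstream of YAP and TAZ in the Hippo pathway 20 were tested, of which Ajuba, Amotl2 and Lats2 are in the target list as well. In the Tfap2c knockdown 5 rose and 2 fell (median 0.09), in the Tead4 knockdown 0 rose and 4 fell (median -0.04), and in the double knockdown 5 rose and 6 fell (median -0.15). The 7 of 20 called in the Tfap2c knockdown are near the 29.6% of all genes called there, and the background is 6.13% for the 4 of 20 in the Tead4 knockdown and 25.1% for the 11 of 20 in the double knockdown. Amot, which encodes the junctional YAP-binding protein angiomotin, fell in the Tfap2c knockdown from 2.22 ± 1.03 to 0.427 ± 0.182 FPKM (-1.12, adjusted p = 0.000201), and Wwc2, a KIBRA relative, fell in the Tead4 knockdown from 5.14 ± 0.475 to 2.62 ± 0.659 FPKM (-0.78, adjusted p = 0.00141). Stk38, a LATS-related kinase gene, rose in the double knockdown from 50.2 ± 2.41 to 75.3 ± 5.83 FPKM (0.57, adjusted p = 0.000304). It also rose in the Tfap2c knockdown, to 67.7 ± 4.37 FPKM (0.42, adjusted p = 0.00251).

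The 14-3-3 genes, whose proteins hold phosphorylated YAP and TAZ in the cytoplasm, were all 7 tested. In the Tfap2c knockdown 4 fell and 0 rose (median -0.49), in the double knockdown 4 fell and 0 rose (median -0.56), and in the Tead4 knockdown 0 were called (median 0.04). Of all genes 13.2% fell in the Tfap2c, 11.3% in the double and 2.78% in the Tead4 knockdown. Ywhaz went from 139 ± 15.4 FPKM in the control to 87.6 ± 6.41 in the Tfap2c knockdown and 88.0 ± 12.3 in the double knockdown (-0.65 and -0.65, adjusted p = 0.000503 and 0.000583). Ywhab changed by -0.60 and -0.64 (adjusted p = 0.000816 and 0.000575) and Ywhag by -0.49 and -0.67 (adjusted p = 0.00264 and 0.000281).

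The other Vgll genes, Vgll1, Vgll2 and Vgll3, stayed under 1 FPKM in each library, as did 4 of the 5 AP-2 genes, so Vgll4 was the one Vgll gene and Tfap2c the one AP-2 gene that was tested. Of 10 AP-1 genes, whose proteins often bind beside TEAD, only Jund was tested. It fell in the Tfap2c knockdown (-0.36, adjusted p = 0.0254) and rose in the Tead4 knockdown (0.45, adjusted p = 0.0282), from 1.13 ± 0.143 FPKM in the control.

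**Figure D4:**
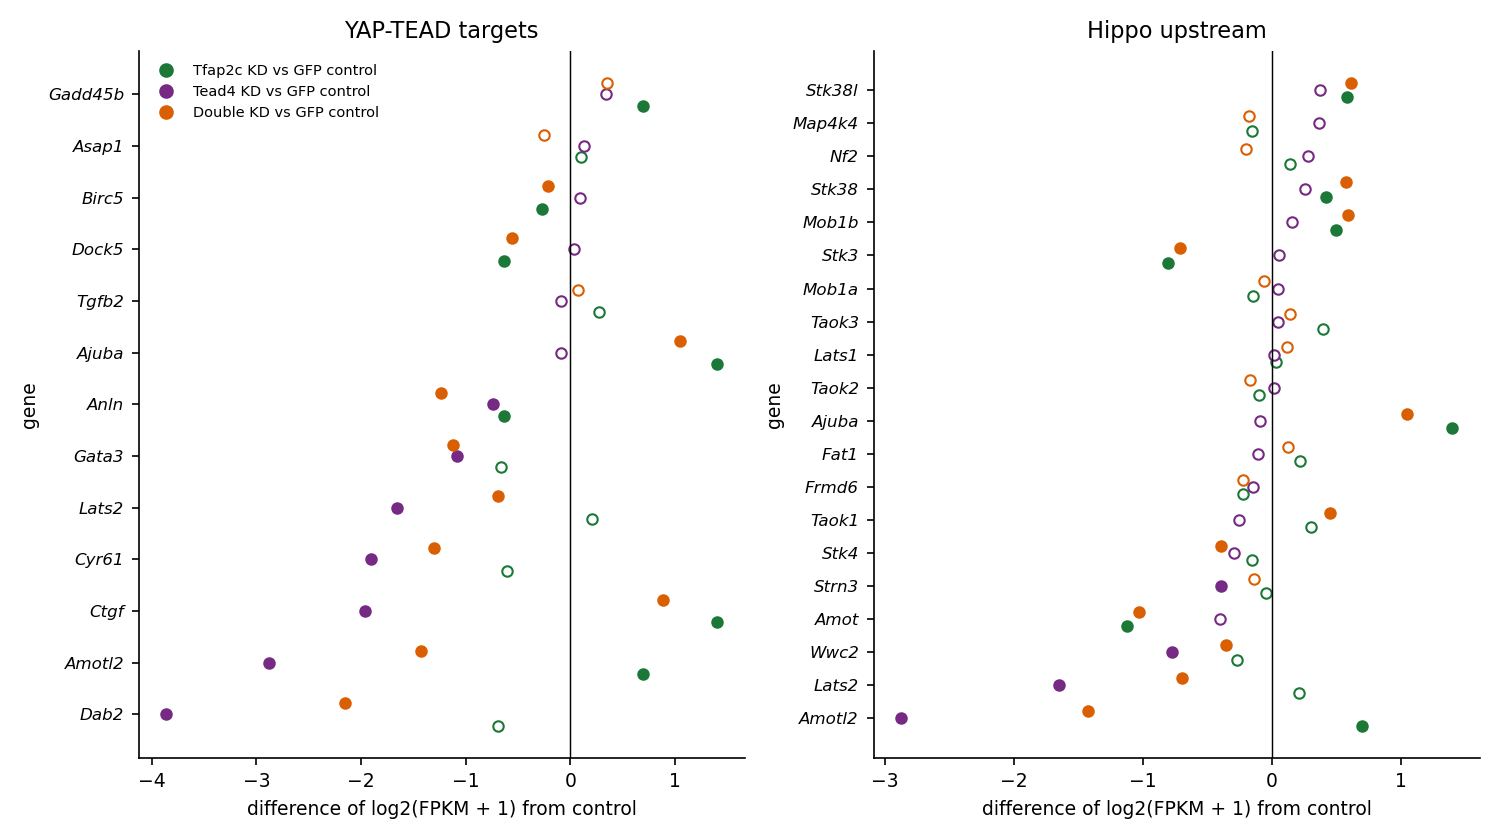
Differences of log2(FPKM + 1) from the control for each tested YAP-TEAD target gene (left) and Hippo gene upstream of YAP and TAZ (right) in the 3 knockdown groups; filled symbols have an adjusted p under 0.05. Amotl2 and Ctgf lie left of 0 in the Tead4 knockdown and right of it in the Tfap2c knockdown.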

How the data were processed

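Poly-A RNA of 16 pools of 10 mouse 8-cell embryos was reverse transcribed and amplified by Smart-seq2, per the labels' protocols. The submitters' processing notes name CASAVA, Trim Galore, STAR, Cufflinks and mm10; what each was used for, its version and the annotation were not given in the sources used here. Without a stated strand setting, reads of a gene and of one overlapping it cannot be told apart. The authors deposited 1 FPKM value for each gene and library, already scaled to length and library size. The 43496 lines held 59 repeated identifiers, whose FPKM were summed, and 27 gene names turned into dates were restored from identifiers. Values of each library summed to 799260 to 874436 FPKM. Absolute depth is unknown; relative depth, estimated from the steps of low values, ran from 0.867 to 1.13, and 7.06% to 12.1% of FPKM was mitochondrial. Correlations between libraries ran from 0.919 to 0.976.

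Values were fitted as log2(FPKM + 1) with limma 3.58.1 in R 4.3.3 (terms for group and cross, eBayes with a variance trend) over the 11422 genes that reached 1 FPKM in 4 or more libraries, adjusted by Benjamini-Hochberg over them; adjusted p values are from limma and two-sided. A second fit added group by cross terms. The fit was tested on simulated data with changes added to the Tfap2c knockdown libraries alone, in genes above a set mean level. Only the Tfap2c knockdown against the control was checked there, so the non-additive part and the group by cross terms were not covered. Alternatives were pseudocount 0.1, no filter or 5 FPKM, no cross term, a replicate block, median-ratio or quantile scaling, no trend, only the groups compared, each cross alone, and each library left out. The members and lists were chosen with earlier results of these data known. All 7 members are named, and up to 3 genes per list and comparison by lowest adjusted p among those called. Cyr61, set beside Ctgf, and some markers that were not called are named outside this rule. Gene positions and promoters are those of RefSeq on GRCm38.p6.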

Additional observations from a re-analysis of the deposited data

Results flagged for a closer look

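Tead3 was the gene with values that stood apart, at levels of at most 0.191 FPKM. Control A1 held 0.178 FPKM with the other 3 control libraries listed at 0, and Tead4 knockdown B2 held 0.0600 FPKM against at most 0.0311 FPKM in the other 3. In both cases 1 library stood apart by Dixon's criterion for 4 samples. With the other 3 control libraries at 0, any value above 0 in control A1 would have met it. In all 28 sets of a gene and a group were looked at. Chance gives about 1 such library in 20 sets of normally distributed values, a rate that does not hold for values listed at 0. The Tead3 difference from the control also had opposite signs in the crosses, at -0.0606 FPKM in cross A and 0.0442 FPKM in cross B for the Tead4 knockdown, and at -0.0322 and 0.106 FPKM for the double knockdown. In cross A these signs rest on the mean of 2 control libraries, at 0.178 and 0 FPKM. Both cross B controls were listed at 0, so the cross B difference could not be negative, and the opposite signs show no cross difference. Limma's interaction test without the expression filter did not call Tead3 (adjusted p = 0.844 for the Tead4 and 0.713 for the double knockdown).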

How the results depend on the processing

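Of 21 calls for the 6 tested genes, 0 reversed in any alternative and 9 held in each one run, while 12 were lost in at least 1. The number of members called in the Tfap2c knockdown fell from 3 to 2 without the expression filter, without a cross term and in either cross alone. The same drop came without Tfap2c KD A1, control A1 or control A2. Losses of the Tead2 call, given above, lowered other counts as well, in the Tead4 knockdown also without the expression filter. The number of members called in the Tead4 knockdown fell from 4 to 2 without a cross term and in cross A alone or cross B alone. For the double against the Tfap2c knockdown it fell from 1 to 0 without the expression filter, without a cross term, in either cross alone and with only the groups compared, and ranged from 0 to 1 with single libraries left out. For the double against the Tead4 knockdown it fell from 3 to 1 in either cross alone. For the non-additive part it fell from 1 to 0 without the filter, without a cross term and in either cross alone, and ranged from 0 to 1 with single libraries left out. With the replicate block (library label in place of cross) the non-additive count was 0 (Vgll4 adjusted p = 0.0502), and the block changed no other call of a member. The labels do not say that same-numbered libraries are paired, and the deviations of same-numbered libraries correlated at -0.165 to 0.176 between groups, so they were not taken as paired. With the block 36 genes in place of 86 had a called non-additive part, and 8 in place of 16 differed between the double and the Tfap2c knockdown. Among changes that were not called, Tead2 in the Tfap2c knockdown turned to -0.14 in cross A alone. Yap1 in the Tfap2c knockdown turned to 0.25 in cross B alone and ranged from -0.12 to 0.11 with single libraries left out, and Yap1 in the Tead4 knockdown turned to -0.0905 in cross B alone and ranged from -0.0652 to 0.18. Fewer samples enter the fits of 1 cross, and the cause of the other changes was not tested. The fit with only the groups compared could not be run for the non-additive part and the crosses. The number of pools and the unknown absolute depth limit what can be seen for Tead3 and for the low levels of Tead2.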
